A study of Homo sapiens with 5 samples.

Results

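The genes described here are 10 genes of telomere maintenance, taken by symbol from a table of RNA-seq counts for 26485 genes. They comprise the 6 genes of the shelterin complex (TERF1, TERF2, TERF2IP, TINF2, POT1 and ACD), the telomerase genes TERT and DKC1, the telomerase-associated TEP1, and the helicase gene RTEL1. All 10 symbols were in the table and all 10 had enough reads to be tested. The cells were RPE1, a human cell line from the retinal pigment epithelium, with the genotype given as WT. RPE1 cells are widely known to have been immortalised with a TERT transgene. All libraries came from cells grown in serum-containing DMEM and treated for 18 h. Of the 5 libraries, 2 came from cells given the solvent DMSO, 2 from cells given 0.2 µM doxorubicin and 1 from cells given 0.34 µM doxorubicin. Doxorubicin is an anthracycline that intercalates into DNA and poisons type II topoisomerases. The 3 doxorubicin libraries were joined into one group and compared with the 2 DMSO libraries, which asked how the transcriptome of RPE1 cells responded to the drug. The study's methods call the libraries of each treatment biological replicates.

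Telomeres are the repeat-bearing ends of chromosomes, and shelterin is the protein complex that coats them. TERF1 and TERF2 encode the proteins TRF1 and TRF2, which bind the double-stranded repeat. POT1 binds the single-stranded overhang, ACD encodes its partner TPP1, TINF2 encodes the bridging protein TIN2, and TERF2IP encodes RAP1, which sits on TRF2. Shelterin keeps chromosome ends from being read as DNA breaks, and its TPP1 subunit also brings telomerase to the end. Telomerase is a reverse transcriptase built from the catalytic protein TERT and an RNA template, which dyskerin, the product of DKC1, holds stable.

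Levels are given as TMM-normalized CPM, the reads of a gene scaled to a common library size. A gene was called changed when its adjusted p (edgeR quasi-likelihood test, Benjamini-Hochberg over 14187 genes tested) was below 0.01. By this rule 2 of the 10 genes changed after doxorubicin, 1 in each direction, while 4.02% of all genes tested were called, 1.29% as higher and 2.73% as lower. TEP1 rose 2.93-fold and ACD fell to a level 2.30-fold lower. The other 8 genes did not pass the test. With DESeq2, which called 14.1% of all genes tested, 3 of the 10 genes passed, the third being DKC1. The log2 fold changes of the 10 genes had a median of -0.35 and ran from -1.20 to 1.55, against a median of 0.013 for all genes tested. In 7 of the 10 genes the DMSO and doxorubicin libraries did not overlap, 2 with all doxorubicin libraries higher and 5 with all lower. Over all genes tested the libraries did not overlap in 47.7%, with 24.3% higher and 23.4% lower. The summed level of the 10 genes was 338 to 348 CPM in the DMSO libraries and 332 to 382 CPM in the doxorubicin libraries.

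**Figure D1:**
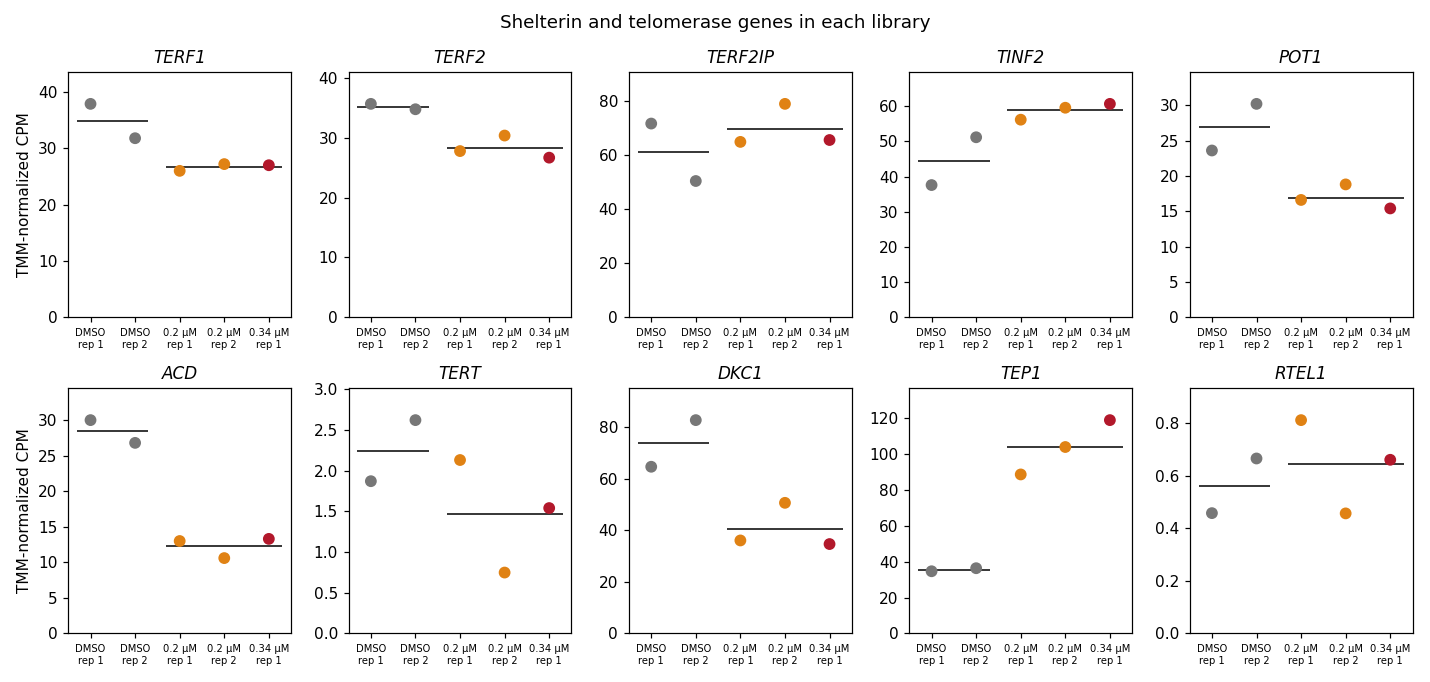
Level of each of the 10 genes in each library, in TMM-normalized CPM on axes that start at 0. Points are single libraries (grey, DMSO; orange, 0.2 µM doxorubicin; red, 0.34 µM doxorubicin) and lines are the means of the 2 DMSO and the 3 doxorubicin libraries. The doxorubicin libraries lie above both DMSO libraries for TEP1 and TINF2 and below both for TERF1, TERF2, POT1, ACD and DKC1.

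ACD (GRCh38, chromosome 16, 67657512 to 67660260, minus strand) was the shelterin gene that fell. Its level was 30 and 26.8 CPM in the DMSO libraries, 13 and 10.6 CPM at 0.2 µM and 13.3 CPM at 0.34 µM. The groups were far apart, and each doxorubicin library stood at 0.355 to 0.496 of a DMSO library. The mean was 28.4 ± 2.31 CPM (SD, n = 2) with DMSO and 12.3 ± 1.45 CPM (SD, n = 3) with doxorubicin. The log2 fold change was -1.20 ± 0.18 (SE) with an adjusted p of 0.00886. This p lay close to the threshold, and with any 1 library left out it was 0.0217 to 0.0451, so that the call rests on all 5 libraries. Across all alternatives the log2 fold change of ACD stayed between -1.30 and -1.10.

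TEP1 (chromosome 14, 20365667 to 20413501, minus strand) moved the other way. It encodes a large protein found with telomerase RNA and also in vault particles. Its level was 34.7 and 36.4 CPM in the DMSO libraries, 88.7 and 104 CPM at 0.2 µM and 119 CPM at 0.34 µM. Every doxorubicin library was 2.43 to 3.44 times a DMSO library. The mean was 35.6 ± 1.24 CPM (SD, n = 2) with DMSO and 104 ± 15.3 CPM (SD, n = 3) with doxorubicin, a log2 fold change of 1.55 ± 0.18 (SE) with an adjusted p of 0.00352. In size this change was larger than that of 93.0% of all genes tested, and that of ACD was larger than 88.9%. With 1 library left out, TEP1 passed the test in 1 of 5 fits (without 0.2 µM replicate 1), with adjusted p between 0.00862 and 0.0242 and log2 fold changes of 1.44 to 1.66.

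The start regions of these genes are shown because they are the 2 that changed, in opposite directions. Each sequence runs from 150 bases before the annotated start to 30 bases after it on the gene's strand, from RefSeq on GRCh38.p14 (ACD, chr16:67660231-67660410, minus strand; TEP1, chr14:20413472-20413651, minus strand), and capitals mark a matched motif:
ACD: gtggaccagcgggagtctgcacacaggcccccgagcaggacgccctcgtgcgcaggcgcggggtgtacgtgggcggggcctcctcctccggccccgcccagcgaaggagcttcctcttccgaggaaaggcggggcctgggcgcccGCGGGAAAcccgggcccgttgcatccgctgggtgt
TEP1: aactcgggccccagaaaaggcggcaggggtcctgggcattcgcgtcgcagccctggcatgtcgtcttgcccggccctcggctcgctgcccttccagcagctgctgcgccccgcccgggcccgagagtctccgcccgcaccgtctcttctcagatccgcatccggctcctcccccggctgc
Both stretches are rich in G and C, at 74.4% for ACD and 72.2% for TEP1, and no other annotated gene lies in either. The motifs named below were searched by their letters on both strands in the full 300-base windows of the table, which run further on each side than the stretches printed. The capitals in ACD are the reverse complement of TTTCCCGC, a form of the E2F site, which begins 5 bases before the start; 1.63% of 35116 promoter windows hold it. No match was found in the window of TEP1 for this form, for the E2F form TTTGGCGC (0.652% of windows), for the CHR element TTTGAA (15.2%), for the E-box CACGTG (7.26%) or for the telomere repeat TTAGGG (9.05%). The table held a window for 8 of the 10 genes, and besides ACD only TERT held a match, an E-box. A match describes letters and does not show that a factor binds.

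POT1 (chromosome 7, 124822386 to 124929825, minus strand), whose protein pairs with that of ACD, was also lower in every doxorubicin library. It stood at 23.6 and 30.2 CPM with DMSO, at 16.6 and 18.8 CPM at 0.2 µM and at 15.4 CPM at 0.34 µM. The means were 26.9 ± 4.63 CPM (SD, n = 2) and 17.0 ± 1.70 CPM (SD, n = 3), and the log2 fold change of -0.67 ± 0.19 (SE) did not pass the test (adjusted p = 0.0616; 0.0187 with DESeq2).

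TERF1 (chromosome 8, 73008864 to 73048123, plus strand) stood at 37.9 and 31.8 CPM with DMSO and at 26.0, 27.2 and 27.0 CPM with doxorubicin. TERF2 (chromosome 16, 69355567 to 69386007, minus strand) stood at 35.7 and 34.8 CPM with DMSO and at 27.8, 30.4 and 26.7 CPM with doxorubicin. The genes of both double-strand binding proteins thus had lower values in all doxorubicin libraries, by a small amount. Neither passed the test, with log2 fold changes of -0.38 ± 0.16 (SE, adjusted p = 0.154) for TERF1 and -0.32 ± 0.15 (SE, adjusted p = 0.203) for TERF2. The ratio of TERF1 to TERF2 counts was 1.06 and 0.912 with DMSO and 0.897 to 1.01 with doxorubicin, so the balance of the pair lay within the range of the DMSO libraries or just below it.

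TINF2 (chromosome 14, 24239640 to 24242674, minus strand) stood at 37.6 and 51.2 CPM with DMSO, at 56.2 and 59.6 CPM at 0.2 µM and at 60.7 CPM at 0.34 µM. It was the shelterin gene with its doxorubicin libraries all above DMSO, but its DMSO libraries lay 0.44 apart on the log2 scale, as far as its log2 fold change of 0.41 ± 0.18 (SE, adjusted p = 0.175). TERF2IP (chromosome 16, 75647773 to 75657432, plus strand) stood at 71.8 and 50.5 CPM with DMSO and at 65.0, 79.1 and 65.7 CPM with doxorubicin. Its groups overlapped, and its log2 fold change was 0.19 ± 0.20 (SE, adjusted p = 0.558).

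**Figure D2:**
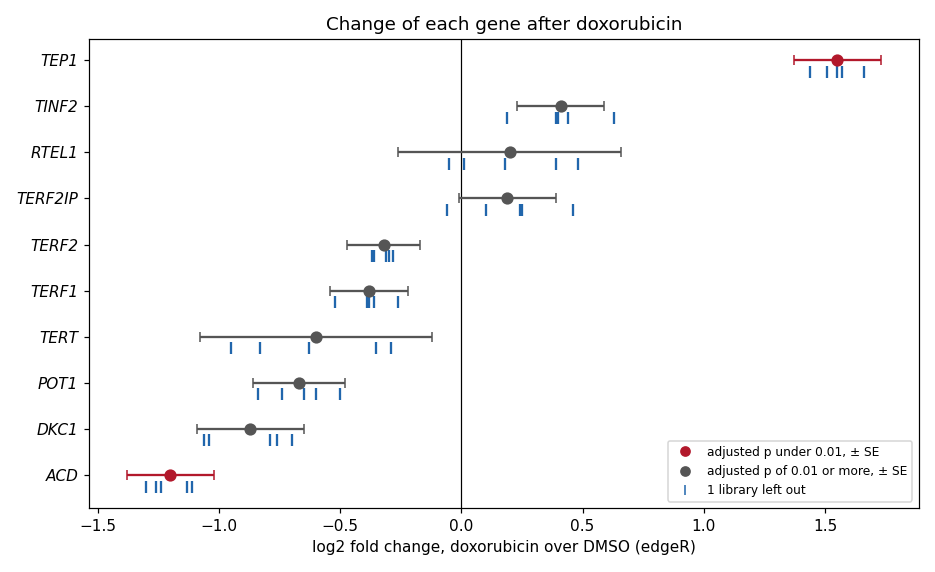
Log2 fold change of each gene, doxorubicin over DMSO, from edgeR, with the standard error as a bar and, below it, the estimates with each of the 5 libraries left out in turn. TEP1 at 1.55 and ACD at -1.20 are the genes with an adjusted p under 0.01; the estimates for TERF2IP and RTEL1 cross 0 when 1 library is left out.

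Shelterin genes can be compared with each other only per length. Counts were therefore divided by the length of each gene's canonical transcript in kilobases and given as shares of the 6-gene sum in each library. Counts were per gene and lengths those of 1 transcript, so the shares and the order of genes depend on this choice. The sum itself was 104 and 98.7 CPM per kb with DMSO and 91.6, 100 and 94.3 CPM per kb with doxorubicin, so the groups overlapped. The shares restate the levels given above and were not tested. Within a library they add up to the whole, so a lower ACD share by itself raises the other shares. ACD took 19.1% and 17.9% of it in the DMSO libraries and 9.38%, 7.02% and 9.32% in the doxorubicin libraries. TINF2 took 20.1% and 28.8% with DMSO and 34.1%, 33.0% and 35.8% with doxorubicin. TERF2IP was the largest or second largest share in each library, at 32.5% and 24% with DMSO and 33.3%, 37.0% and 32.7% with doxorubicin. POT1 was the smallest share in all 5 libraries, at 5.80% and 7.79% with DMSO and 4.17% to 4.77% with doxorubicin. TERF1 took 9.67% to 11% with DMSO and 8.15% to 8.59% with doxorubicin, and TERF2 took 11.5% to 11.8% and 9.46% to 10.1%. By mean level per length the DMSO order was TERF2IP (28.7 ± 7.07 CPM per kb, SD, n = 2), TINF2 (24.7 ± 5.34), ACD (18.8 ± 1.5), TERF2 (11.8 ± 0.212), TERF1 (10.5 ± 1.30) and POT1 (6.86 ± 1.19). TERF2IP and TINF2 overlapped between libraries in both groups and cannot be ordered. With doxorubicin ACD (8.14 ± 0.979 CPM per kb, SD, n = 3) stood beside TERF1 (8.03 ± 0.193), with overlapping libraries, and below TERF2 (9.45 ± 0.634).

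The ratio of TINF2 to ACD counts is formed within a library and does not depend on the scaling between libraries. Their proteins bind each other within shelterin. The ratio was 1.25 and 1.91 with DMSO, 4.33 and 5.60 at 0.2 µM and 4.57 at 0.34 µM. With TINF2 higher and ACD lower in every doxorubicin library, the groups could not overlap, so their separation is no further result. The ratio of POT1 to ACD was 0.787 and 1.13 with DMSO and 1.28, 1.77 and 1.16 with doxorubicin, so its groups nearly met.

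**Figure D3:**
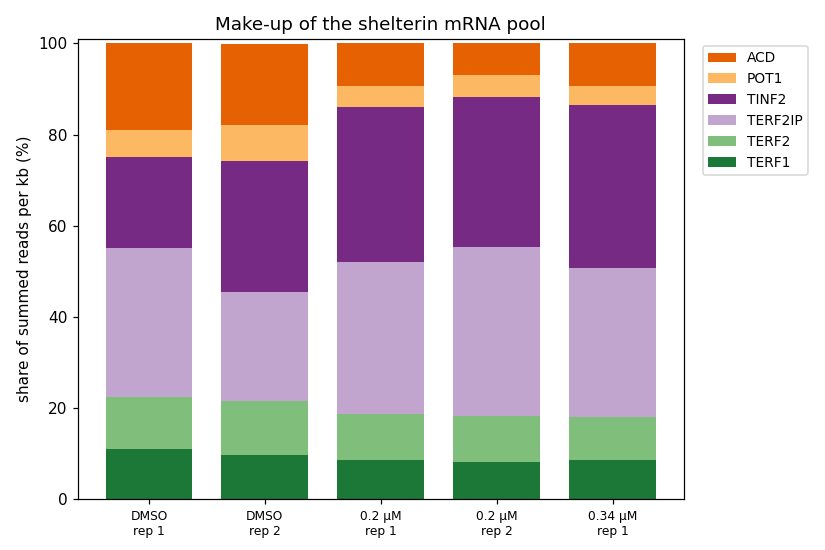
Share of each shelterin gene in the summed reads per kb of the 6 genes, in percent, as 1 stacked bar for each library. The ACD share is 17.9% to 19.1% with DMSO and 7.02% to 9.38% with doxorubicin; the TINF2 share is 20.1% to 28.8% and 33.0% to 35.8%.

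DKC1 (chromosome X, 154762864 to 154777689, plus strand) was lower in all doxorubicin libraries. It stood at 64.7 and 82.8 CPM with DMSO, at 36.1 and 50.7 CPM at 0.2 µM and at 34.7 CPM at 0.34 µM. The means were 73.7 ± 12.8 CPM (SD, n = 2) and 40.5 ± 8.86 CPM (SD, n = 3). Its log2 fold change of -0.87 ± 0.22 (SE) did not pass the edgeR test (adjusted p = 0.0457) and passed that of DESeq2 (adjusted p = 0.00506). The small RNA genes MIR664B, SNORA36A and SNORA56 lie within DKC1. In CPM, TEP1 was below DKC1 with DMSO and above it with doxorubicin, with a TEP1 to DKC1 count ratio of 0.536 and 0.440 with DMSO and 2.06 to 3.44 with doxorubicin, though per length DKC1 was still above TEP1, at 16.4 ± 3.59 against 9.64 ± 1.41 CPM per kb (SD, n = 3).

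TERT (chromosome 5, 1253167 to 1295068, minus strand) was covered thinly, with 49 and 67 counts in the DMSO libraries, 55 and 18 at 0.2 µM and 56 at 0.34 µM. These are levels of 1.87, 2.62, 2.13, 0.748 and 1.54 CPM. The exact Poisson 95% interval of 0.2 µM replicate 2 was 0.444 to 1.18 CPM and that of 0.2 µM replicate 1 was 1.60 to 2.77 CPM, so these replicates differed by more than counting error, which is the only error such intervals cover. The log2 fold change of TERT was -0.60 ± 0.48 (SE, adjusted p = 0.441), and a change of this size was not detectable at this depth and spread. It ran from -0.95 to -0.29 with 1 library left out. Counts per gene symbol cannot tell reads of a transgene from those of the chromosomal gene. Per length TERT lay far below DKC1, at 0.556 ± 0.131 against 29.9 ± 5.18 CPM per kb with DMSO (SD, n = 2).

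RTEL1 (chromosome 20, 63657810 to 63696253, plus strand), a helicase that unwinds structures at telomeres, had 12 and 17 counts with DMSO and 21, 11 and 24 with doxorubicin. At 0.457 to 0.812 CPM it was the lowest of the 10 genes, its groups overlapped, and its log2 fold change was 0.20 ± 0.46 (SE, adjusted p = 0.812). Its count is uncertain because the read-through gene RTEL1-TNFRSF6B overlaps it on the same strand and was counted separately, with 0 to 9 counts in a library. By current symbols the other 9 genes overlapped no counted gene, apart from the small RNAs in DKC1. Genes counted under an older symbol were missed by this check.

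Between the concentrations, 0 of the 10 genes passed the edgeR test of 0.34 µM against 0.2 µM, 0 had an unadjusted p under 0.05, and DESeq2 and limma voom called 0. Of all 14745 genes in that fit, 0 were called (0%) and 27 had an unadjusted p under 0.05. With 1 library at 0.34 µM, its spread is taken to equal that of the other conditions. TEP1 was 1.43 above DMSO on the log2 scale at 0.2 µM and 1.74 at 0.34 µM, a difference of 0.31 ± 0.25 (SE, unadjusted p = 0.261). ACD was at -1.27 and -1.10, a difference of 0.17 ± 0.31 (SE). DKC1 was at -0.77 and -1.09, a difference of -0.32 ± 0.33 (SE). With standard errors of this size, differences as large as these estimates were not detectable.

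The genes that work with these were described from 4 lists of 43 genes in all. The lists were chosen with earlier results of these data known, so their share of calls describes them and is not an independent result. Of 41 tested, 6 were called and all 6 were lower (14.6%, against 4.02% of all genes). Their median log2 fold change was -0.50, with 36 below 0 and 5 above, while 48.9% of all genes tested were below 0. DESeq2 called 18, of which 1 was higher and 17 were lower. With 1 library left out edgeR called 0 to 3 of the 41, the lowest without DMSO replicate 2.

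In the list of telomere end processing and helicases, 4 of 16 genes fell and the other 12 did not pass the edgeR test. DESeq2 called 9 of the 16, all lower. The median was -0.87 and all 16 estimates were below 0. PIF1, a helicase that removes telomerase from ends, was at 6.98 and 9.36 CPM with DMSO and at 0.503, 0.249 and 0.358 CPM with doxorubicin, a log2 fold change of -4.44 ± 0.37 (SE, adjusted p = 0.00133). BLM, the Bloom syndrome helicase, fell by 2.74 on the log2 scale (adjusted p = 0.00327). The nuclease gene DCLRE1B, also called Apollo, whose protein binds TRF2, fell by 2.10 on the log2 scale (adjusted p = 0.00336). EXO1, a nuclease that resects DNA ends, fell by 2.80 on that scale (adjusted p = 0.00761). In the list of the CST complex and C-strand fill-in, which completes the strand that telomerase does not copy, 2 of 6 tested genes fell. They were the DNA polymerase alpha subunit POLA1 (-2.65 ± 0.29, SE, adjusted p = 0.00302) and the primase PRIM1 (-3.03 ± 0.34, SE, adjusted p = 0.00352). Both also serve replication of the whole genome. POLA2 (-1.51 ± 0.28, SE, adjusted p = 0.0181) and PRIM2 (-1.27 ± 0.25, SE, adjusted p = 0.0223) were lower in every doxorubicin library but did not pass the edgeR test. DESeq2 called 4 genes of this list, all lower, and its median was -1.39. Of the CST genes themselves, CTC1 was at 0.47 and STN1, listed as OBFC1, at -0.04, and neither passed the test. TEN1 was listed at 0 counts in all libraries, and the overlapping read-through gene TEN1-CDK3 had 9 to 18.

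In the list of telomerase assembly genes 0 of 9 tested genes passed the edgeR test and 1, WRAP53, passed that of DESeq2, with a median of -0.36 and all 9 estimates below 0. WRAP53, which brings telomerase to Cajal bodies, was at 10.6 and 17.4 CPM with DMSO and at 7.04, 6.61 and 6.61 CPM with doxorubicin (log2 fold change -1.05 ± 0.25, SE, adjusted p = 0.0412). Whether counting used the strand is not given, so counts of list genes that overlap another gene are uncertain. NAF1, an assembly factor, had a log2 fold change of -0.60 ± 0.23 (SE, adjusted p = 0.138). The telomerase RNA TERC had 2 to 6 counts in a library, in libraries made from poly-A RNA, which TERC largely lacks, and was not tested. In the list of shelterin partners and regulators 0 of 10 passed edgeR and 4 passed DESeq2, with a median of -0.30. FBXO4, which targets TRF1 for breakdown, was at -1.06 ± 0.27 (SE, adjusted p = 0.0467), and ZBTB48, which binds the telomere repeat, at 0.96 ± 0.22 (SE, adjusted p = 0.0366).

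**Figure D4:**
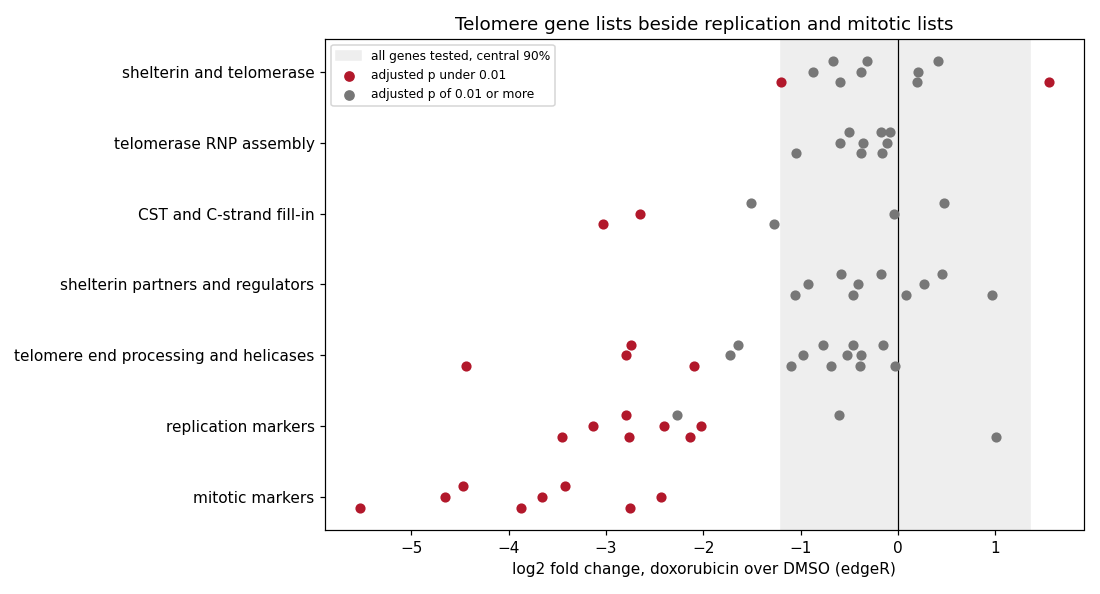
Log2 fold change, doxorubicin over DMSO, of each tested gene (points; red, adjusted p under 0.01) in the 10 genes, the 4 telomere lists and 2 lists for comparison; the grey band holds the central 90% of all genes tested, from -1.20 to 1.36. The 6 called genes of the telomere lists lie between -2.10 and -4.44, in the range of the replication and mitotic lists.

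Other gene groups moved beside these in the same libraries. Of 10 replication genes 7 were called lower by edgeR, against 2.73% of all genes tested, and 9 of the 10 estimates were below 0. MCM2 (-2.27 ± 0.36, SE, adjusted p = 0.0108) and TYMS (-0.61 ± 0.31, SE, adjusted p = 0.237) were below 0 and did not pass. PCNA, a replication clamp, was higher in every doxorubicin library and did not pass the test (log2 fold change 1.01 ± 0.36, SE, adjusted p = 0.117). The replication list had summed levels of 964 and 1850 CPM in DMSO replicates 1 and 2 and 427 to 652 CPM with doxorubicin. The DMSO libraries thus differed in replication genes, by a median of 0.95 on the log2 scale (replicate 2 over replicate 1). Of the 10 genes, RTEL1 (0.54), TERT (0.49), TINF2 (0.44), DKC1 (0.36), POT1 (0.35) and TEP1 (0.07) differed in that direction, and TERF2IP (-0.51), TERF1 (-0.25), ACD (-0.17) and TERF2 (-0.04) in the other. For RTEL1 and TERT the Poisson 95% intervals of the DMSO libraries overlapped, and TEP1 and TERF2 hardly differed. In the first set TINF2 and TEP1 were higher and DKC1 and POT1 lower in every doxorubicin library, while RTEL1 and TERT overlapped. In the other set TERF1, ACD and TERF2 were lower in every doxorubicin library, while TERF2IP overlapped. All 8 mitotic genes were called lower by edgeR, against 2.73% of all genes tested. Their summed level was 2980 to 3240 CPM with DMSO and 193 to 300 CPM with doxorubicin. The part of these groups and markers in the values of the 10 genes was not tested, and in bulk RNA fewer cells of one kind, such as dividing cells, cannot be told apart from less RNA in each cell. Of 10 markers of retinal pigment epithelium 6 were tested and 0 were called by edgeR (2 by DESeq2, both higher). The summed level of all 10 was 637 to 783 CPM with DMSO and 1050 to 1250 CPM with doxorubicin, without overlap. Most of this sum came from the keratins KRT8 (means of 357 CPM with DMSO and 653 CPM with doxorubicin) and KRT18 (282 and 436 CPM). Of the 6, 4 were higher in every doxorubicin library, against 24.3% of all genes tested. They were KRT8 (log2 fold change 0.87 ± 0.15, SE, adjusted p = 0.0133), KRT18, BEST1 and PMEL. The last 2 were thinly covered with DMSO, at 26 and 14 counts for BEST1 and 7 and 5 counts for PMEL. The groups overlapped for MITF (log2 fold change 0.05 ± 0.28, SE) and OTX2 (-0.02 ± 0.18, SE). The defining markers RPE65, RLBP1, TYRP1 and TYR had 8 counts or fewer in each library, and PMEL stood at 0.196 to 1.33 CPM. MITF stood at 29.1 to 56.7 CPM and OTX2 at 23.5 to 29.4 CPM. These markers alone do not identify the tissue, which is taken from the labels. The 6 fibroblast markers summed to 443 to 800 CPM with DMSO and 398 to 619 CPM with doxorubicin, with overlapping groups. Most of this came from THY1 (351 to 502 CPM) and COL1A1 (42.7 to 287 CPM), and the remaining markers stood at 8.70 CPM or lower. Of the fibroblast markers, 0 of 5 tested were called by edgeR (1 by DESeq2). Total counts were 23773061 to 36725345 in a library.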

How the data were processed

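RNA-seq of 5 RPE1 libraries was analysed. The authors deposited raw counts of read pairs per gene symbol, from poly-A RNA and a stranded kit, mapped to hg38 with STAR and counted with featureCounts, per the labels. Tool versions and the strand setting used in counting were not given in the sources used here. A deposited table of differential expression, with means, fold changes and p-values of the study, was not used. Concentrations follow the treatment field of the labels and the results text of the study. The labels' treatment protocol and the study's methods on cell treatment give far higher values in µM, and the sources thus disagree.

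Counts were tested with edgeR 4.0.16 in R 4.3.3 (quasi-likelihood test, TMM scaling, no covariates, minimum count of 10 and minimum total of 15), with 3 doxorubicin libraries against 2 DMSO libraries. DESeq2 1.42.0 and limma 3.58.1 served as alternatives, beside other scalings, filters, thresholds, dose groups, thinning to the smallest total and leaving out each library. Standard errors are the absolute log2 fold change over the square root of F. The dose contrast came from a fit of 3 conditions. Of the lists and motifs examined, 1 list and 1 motif are not reported here. The edgeR test of doxorubicin against DMSO was tried on simulated data, and the other steps were not. The members and lists were chosen with earlier results of these data known. In each telomere list the genes past the threshold and the 2 largest changes (mean log2 CPM of at least 1) were named. CTC1, OBFC1, TEN1, POLA2, PRIM2, TERC, PCNA, MCM2, TYMS, KRT8, KRT18, BEST1, PMEL, THY1 and COL1A1 were added after their values were seen. Positions and sequences are from RefSeq, GRCh38; transcript lengths are from GENCODE. No deposited columns were left unmapped. Replicates of a pair differed by far more than sampling noise (chi-square per degree of freedom 117 and 75.3).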

Additional observations from a re-analysis of the deposited data

How the results depend on the processing

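The directions of the 10 genes held in all but 2 of 159 refits. TERF2IP was at -0.06 without DMSO replicate 2 (range with 1 library left out, -0.06 to 0.46). RTEL1 was at -0.05 without DMSO replicate 1 (-0.05 to 0.48). Leaving out the 0.34 µM library and using the 0.2 µM libraries alone are the same fit. The 159 refits and the 16 alternatives of a gene count it under both names. The 2 calls among the 10 genes became 3 with DESeq2 or a threshold of 0.05, 1 (TEP1) after thinning, 0 with the 0.2 µM libraries alone, 0 for either dose in the fit of 3 conditions, and 0 to 1 with 1 library left out. In the 4 telomere lists 6 calls became 18 with DESeq2, 18 at a threshold of 0.05, 12 with no filter, 2 with the 0.2 µM libraries alone, 2 for 0.2 µM and 0 for 0.34 µM in the fit of 3 conditions, and 0 to 3 with 1 library left out. Over all genes 571 calls became 2026, 1927, 1020, 178, 185 and 98 in the same order, and 49 to 215 with 1 library left out, lowest without DMSO replicate 2. The 0.34 µM library is alone in its condition. Over all alternatives the log2 fold change stayed between -1.30 and -1.10 for ACD, called in 7 of 16, and between 1.43 and 1.74 for TEP1, called in 9 of 16.

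The labels number the DMSO and 0.2 µM libraries alike. With the replicate number as a block in a fit of these 4 libraries (replicate block), 2 of the 10 genes, 12 of the telomere lists and 1249 of all genes were called, against 0, 2 and 178 without it. Across genes the differences between replicates 1 and 2 correlated at 0.51 between the conditions, which with 2 pairs does not show that the samples were paired.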
